A study of Mus musculus with 15 samples.

Results

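RvD6 and its stereoisomer RvD6si, docosanoid lipids applied to the injured cornea, were compared directly in the mouse trigeminal ganglion (TG). The comparison covered 10 of the 15 TG libraries of the series, the 5 labelled RvD6-isomer (libraries 11 to 15, called RvD6si) and the 5 labelled RvD6-standard (libraries 6 to 10, called RvD6). Each library was chosen by its treatment label alone, and the 5 vehicle libraries (1 to 5) served as a reference. All 15 TG came from male CD1 mice aged 10 weeks whose right cornea had been demarcated with a 2 mm trephine and stripped of epithelium and anterior stroma under ketamine and xylazine, with tobramycin given afterwards. The eye received vehicle, RvD6 or RvD6si 3 times a day, and the TG of the injured side was taken on day 12. The RvD6 standard was supplied as a gift, whereas RvD6si had been purified from mouse tears and from the medium of cultured corneas and its stereoconfiguration is not given. The dose of either lipid in the RNA-seq experiment was not given in the sources used here, so the comparison is of the treatments as applied. It holds 1 pair of lipids and 1 day.

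Resolvins are oxygenated products of docosahexaenoic acid that are best known for ending inflammation, and stereoisomers of a resolvin carry the same atoms and bonds with a different arrangement in space. The TG holds the cell bodies of the sensory neurons whose axons reach the cornea, wrapped by satellite glia, with myelinating Schwann cells along the axons, and resident macrophages, vessels and connective tissue. Corneal neurons are a small share of these cells, so RNA from the whole ganglion mixes innervating neurons with all others, and in such bulk samples fewer cells of a type and less RNA per cell cannot be told apart.

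Few genes separated the lipids. Of 16567 genes that passed the filter on low counts, 39 (0.235%) differed between RvD6si and RvD6 at a Benjamini-Hochberg adjusted p below 0.05 in the quasi-likelihood test of edgeR. In RvD6si, 37 of them were lower (0.223%) and 2 were higher (0.0121%). The lower genes comprised 21 genes of striated muscle, 5 of leukocytes and bone, 4 of smooth muscle and the vessel wall, 4 abundant noncoding RNAs and 3 others, and the higher genes were Nbas and Cc2d1b. In 33 of the 39 genes the normalized counts of the 5 RvD6si and the 5 RvD6 libraries did not overlap, against 1.09% of all tested genes with RvD6si entirely below and 0.652% with it entirely above. The 39 were called for a difference in the same libraries, so the lack of overlap is partly built in. The precision of the comparison was moderate, with a 95% interval that lay within 1 log2 unit of 0, that is within a 2-fold difference, for 9158 genes (55.3%). Over all tested genes the median log2 difference was -0.0039, and at an unadjusted p below 0.05, which 1461 genes (8.82%) met, the 693 higher genes (4.18%) were nearly as many as the 768 lower ones (4.64%). The p-values measure the spread between the TG of different mice, which also holds the spread of library preparation.

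**Figure D1:**
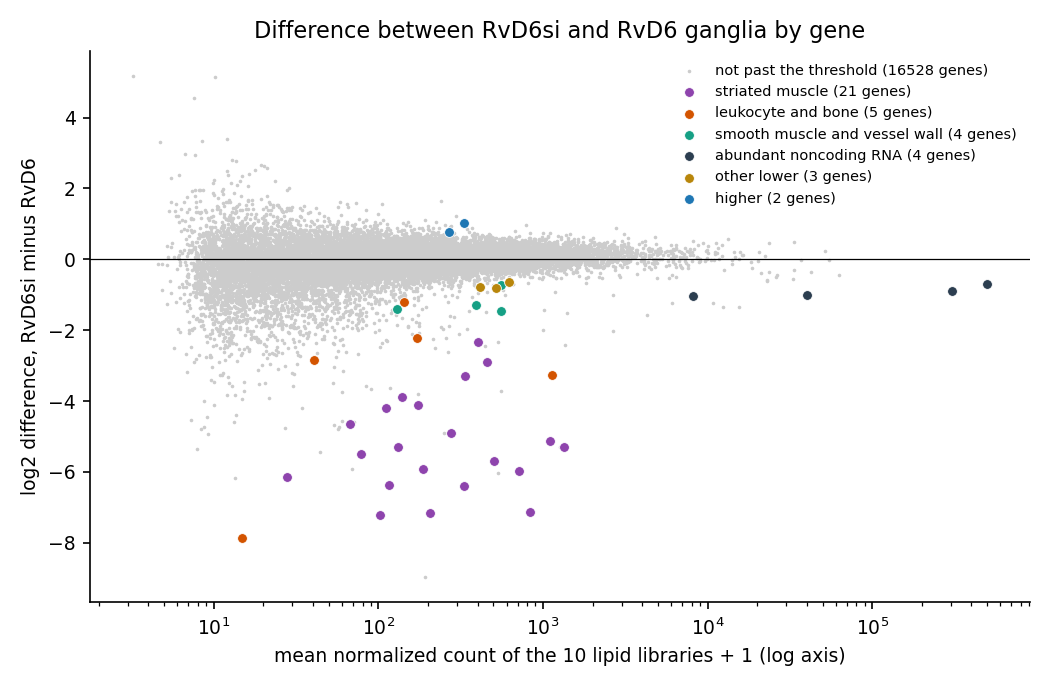
Log2 difference between RvD6si and RvD6 (vertical axis) against the mean normalized count of the 10 lipid libraries plus 1 (horizontal log axis), one point per gene. Coloured points are the 39 genes past the threshold by group, of which the 21 striated muscle genes lie between -7.21 and -2.32 and the 4 noncoding RNAs sit at the far right, among the most counted genes.

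Libraries of the same group were not alike. Total counts per library ranged from 4125962 to 8762636 in RvD6si and from 5336073 to 9618944 in RvD6 (p = 0.659 in an exact two-sided permutation of the 5 and 5 libraries, where 0.00794 is the smallest p possible). The tissue carried its own markers, since all 14 sensory neuron, 10 satellite glia and 12 Schwann cell genes listed passed the filter. Markers of other tissues were uneven. The 14 skeletal muscle markers summed to 465, 141, 2315, 3657 and 356 CPM (counts scaled to a common library total) in RvD6 libraries 6 to 10 and to 68.9, 93.5, 67.4, 46.6 and 57.4 CPM in RvD6si libraries 11 to 15. RvD6 libraries 8 and 9 were thus far above the rest, the lowest RvD6 library still exceeded the highest RvD6si library, and vehicle lay between 55.9 and 222 CPM. No muscle marker was at 0 counts throughout a group.

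Blood-forming cells gave another split. The 13 erythroid markers matched in the table summed to 9715, 8531, 10092, 5756 and 10706 CPM in the RvD6 libraries and to 970.4, 2723, 1383, 1308 and 12959 CPM in the RvD6si libraries. The 17 granulocyte precursor markers summed to 2451, 3185, 1436, 995 and 3144 CPM in RvD6 and 201, 98.1, 88.6, 115 and 2608 CPM in RvD6si. RvD6si library 15 therefore stood with the RvD6 group for marrow genes, while its muscle level was as low as that of the other RvD6si libraries. The count of 39 genes rested on which libraries entered the fit. Without RvD6si library 15 it rose to 156 genes (0.916%), 142 lower (0.833%) and 14 higher (0.0822%), which included all 39. It was 13 (0.0764%) without RvD6 library 8 and also without RvD6 library 9, 25 (0.147%) without RvD6 library 10, and 2 (0.0117%) without RvD6si library 11, 13 or 14. With RvD6 libraries 8 and 9 both left out it was 2 (0.0114%), all lower, and with these and RvD6si library 15 left out it was 94 (0.54%), with 87 lower (0.499%) and 7 higher (0.0402%). The latter fits were added after the libraries had been seen.

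**Figure D2:**
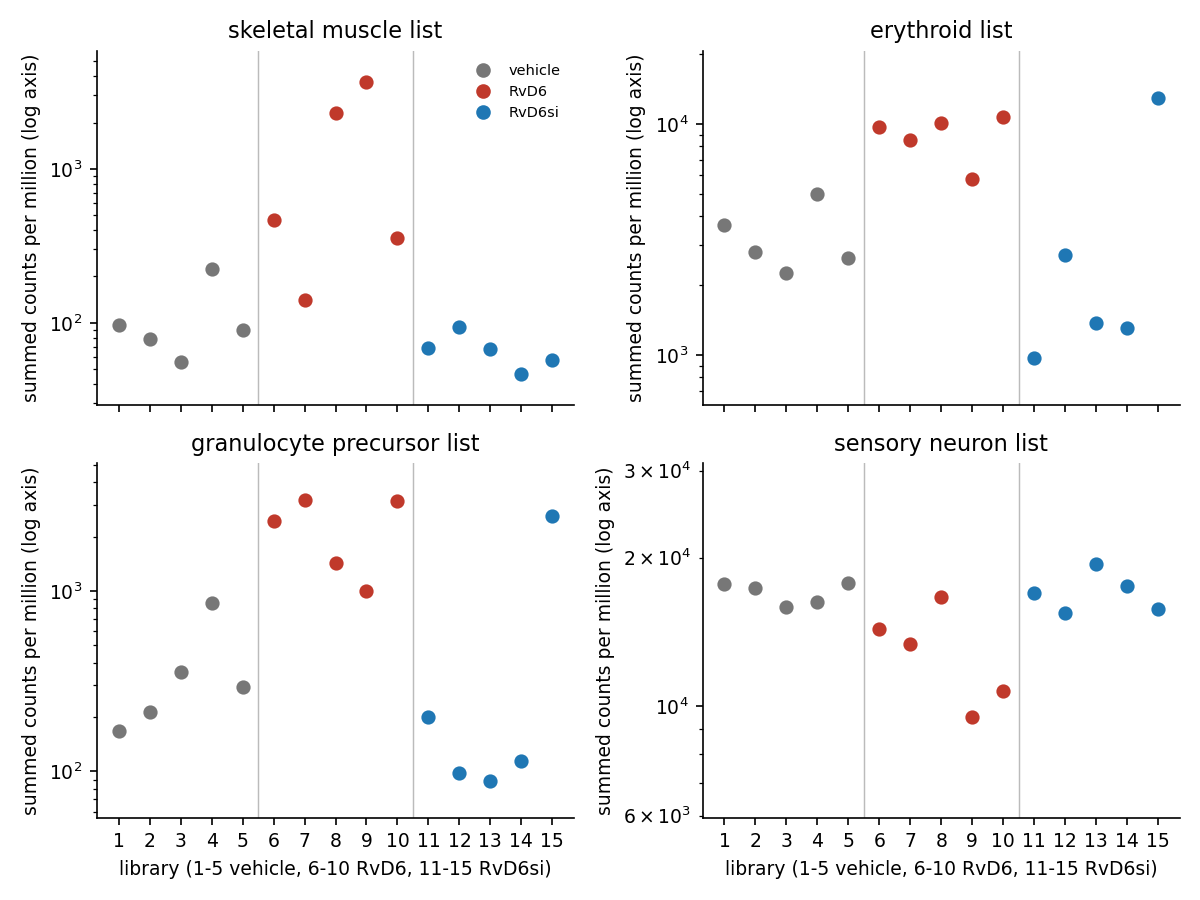
Summed CPM of 4 marker lists (vertical log axes) in libraries 1 to 5 (vehicle), 6 to 10 (RvD6) and 11 to 15 (RvD6si). RvD6 libraries 8 and 9 stand out for muscle at 2315 and 3657 CPM, and RvD6si library 15 lies at the RvD6 level for erythroid (12959 CPM) and granulocyte precursor genes (2608 CPM).

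Genes of striated muscle made up 21 of the 37 lower genes. They encode the contractile filaments, the calcium store and the energy supply of the muscle fibre, and all 21 had their highest value in RvD6 library 8 or 9, with the lowest RvD6 value in library 7 for 19. Among filament genes, Acta1 (skeletal muscle actin, chr8:123891769-123894751 on GRCm38) had normalized counts of 849, 214, 4748, 6342 and 881 in RvD6 libraries 6 to 10 and 106, 83.9, 55.7, 50.7 and 27.6 in RvD6si libraries 11 to 15, the order used for all values here. Ttn (titin, the spring of the sarcomere, chr2:76703980-76982547) had 550.3, 351, 3396, 5149 and 1312 in RvD6 and 80.2, 70.3, 55.7, 32.1 and 71.5 in RvD6si. Neither gene overlapped between the lipids, and the RvD6 libraries spanned a far wider range than the RvD6si libraries. The log2 difference was -5.30 for Acta1 (95% interval -7.04 to -3.56, edgeR adjusted p = 0.0197) and -5.12 for Ttn (95% interval -6.71 to -3.52, adjusted p = 0.0132), or 39.5-fold and 34.7-fold lower in RvD6si. The fast myosin heavy chain Myh4 (chr11:67238029-67260446) counted 287, 178, 2377, 4169.6 and 38.3 in RvD6 and 16.9, 3.19, 52, 25.9 and 11.4 in RvD6si. Its relative Myh1 was one of the 6 muscle genes whose groups overlapped, with 143, 10.8, 235, 398 and 264 in RvD6 and 22.6, 12.8, 9.13, 4.14 and 8.13 in RvD6si. Log2 differences were -5.97 for Myh4 and -4.19 for Myh1 (adjusted p = 0.0387 and 0.0207).

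Genes of the calcium store and of energy supply followed the same libraries. Atp2a1, the calcium pump of the fast-fibre sarcoplasmic reticulum (chr7:126445858-126463108), counted 248, 98.2, 2236, 5448 and 215 in RvD6 and 16.9, 1.6, 30.1, 6.21 and 0 in RvD6si. Ckm, the muscle creatine kinase (chr7:19404776-19422841), counted 464, 71.2, 1852, 2371 and 203 in RvD6 and 7.91, 32.7, 29.2, 17.6 and 1.63 in RvD6si. Both were lowest in RvD6si without overlap, by -7.14 (95% interval -9.62 to -4.66) and -5.69 (95% interval -7.65 to -3.73) on the log2 scale, each at adjusted p = 0.0199. Of the 39 genes, 15 share exon positions with another annotated gene, among them Atp2a1, Ckm and Ttn with one on the opposite strand. The counting did not use strand, so reads in the shared positions cannot be assigned and are not counted. The further muscle genes were the light chains Myl1 (-7.15) and Mylpf (-4.89), troponin T Tnnt3 (-6.39), cardiac actin Actc1 (-5.93), tropomyosin Tpm2 (-2.89), nebulin Neb (-2.32) and desmin Des (-3.87). To these came triadin Trdn (-5.49), the sarcomere-associated Cmya5 (-4.65), myoglobin Mb (-5.29), mitochondrial creatine kinase Ckmt2 (-6.38) and the glycolytic muscle isoforms Pgam2 (-4.10) and Eno3 (-3.29), all as log2 differences, with edgeR adjusted p from 0.0199 for Myl1 and Tpm2 to 0.0435 for Trdn. The pseudogene Mylf-ps (-7.21) carries the name of a myosin light chain pseudogene, and its reads are uncertain where they match a parent gene. Raw counts summed over the RvD6si libraries were 6 for Mylf-ps, 13 for Myl1 and for Ckmt2, 16 for Trdn and 31 for Actc1. Counts this low leave the sizes of those log2 differences uncertain. Nrap, an actin-anchoring protein of muscle, had 232 raw counts in RvD6 and 3 in RvD6si, too few for a fold change (adjusted p = 0.0471).

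The muscle difference was smaller without the libraries that carried the most muscle RNA. With RvD6 libraries 8 and 9 left out, all 21 genes stayed lower in RvD6si, the median log2 difference moved from -5.30 to -3.57, all 21 had an unadjusted p below 0.05 and none passed the adjusted threshold. The 21 genes had been called with these remaining libraries in the fit and moved together, so their staying lower is not a separate check. With the muscle level of each library as a covariate, a fit added after the libraries had been seen, 2 genes were called (0.0121%) and none of the 39 was among them. That level (mean centred log2 CPM of the muscle list) was 0.0094 to 4.62 in RvD6 libraries and -2.16 to -1.16 in RvD6si libraries. It did not overlap between the lipids, so the fit cannot separate muscle level from treatment. Acta1, itself in the muscle list, then differed by -0.15 (edgeR adjusted p = 0.978). The muscle calls also depended on the tool. Limma-voom called 41 genes (0.247%), 37 of them lower (0.223%), and shared 15 with the 39, but it called 0 of the 21 striated muscle genes. All 21 were negative with it, 15 had an unadjusted p below 0.05, and Ttn and Acta1 differed by -4.41 and -4.34 (limma adjusted p = 0.0789 and 0.153). DESeq2 called all 21, against 0.678% of all its tested genes called lower.

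Promoter sequences are shown for the 4 of the 39 genes whose promoter window held a CArG box, the binding motif of serum response factor, a known regulator of actin and myosin genes in muscle. RefSeq gave a window, from 250 bases before to 50 bases after the transcription start on GRCm38.p6, for 28 of the 39 genes. The box was searched on both strands, which read alike for this palindromic motif, and 535 of 32851 windows (1.63%) held it. Of the 4 genes, 3 belong to striated muscle and Myl9 to smooth muscle. Capitals mark the box, and each window is written 5′ to 3′ on the strand of its gene.
Actc1: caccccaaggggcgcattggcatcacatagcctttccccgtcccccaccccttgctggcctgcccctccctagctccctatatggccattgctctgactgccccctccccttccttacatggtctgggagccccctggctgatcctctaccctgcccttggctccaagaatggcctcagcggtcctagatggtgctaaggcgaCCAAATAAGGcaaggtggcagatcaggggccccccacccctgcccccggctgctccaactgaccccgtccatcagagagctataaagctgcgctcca
Acta1: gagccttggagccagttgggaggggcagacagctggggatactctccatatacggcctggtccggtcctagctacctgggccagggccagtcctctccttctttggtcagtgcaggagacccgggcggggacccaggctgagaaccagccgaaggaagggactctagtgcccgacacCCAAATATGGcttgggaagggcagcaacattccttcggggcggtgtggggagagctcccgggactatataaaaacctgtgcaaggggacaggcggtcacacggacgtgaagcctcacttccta
Myh4: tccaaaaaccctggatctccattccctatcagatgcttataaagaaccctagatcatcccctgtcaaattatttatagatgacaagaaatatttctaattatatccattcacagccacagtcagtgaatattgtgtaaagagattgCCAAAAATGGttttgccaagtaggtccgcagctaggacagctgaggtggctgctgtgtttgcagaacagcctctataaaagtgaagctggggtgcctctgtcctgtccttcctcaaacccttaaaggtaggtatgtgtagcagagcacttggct
Myl9: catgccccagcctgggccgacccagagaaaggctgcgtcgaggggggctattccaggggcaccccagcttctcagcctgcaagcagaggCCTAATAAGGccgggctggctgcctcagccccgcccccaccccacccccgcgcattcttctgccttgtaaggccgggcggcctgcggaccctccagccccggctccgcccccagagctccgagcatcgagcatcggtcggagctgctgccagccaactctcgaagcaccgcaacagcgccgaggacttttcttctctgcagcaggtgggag
The windows lie at chr2:114052826-114053125 on the minus strand for Actc1, chr8:123894726-123895025 on the minus strand for Acta1, chr11:67237562-67237861 on the plus strand for Myh4 and chr2:156775214-156775513 on the plus strand for Myl9. The first base of the box was at -47 for Actc1, -73 for Acta1, -104 for Myh4 and -161 for Myl9 relative to the start. A match is a run of letters and not a bound site, and no match says nothing about the factor.

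Smooth muscle and vessel wall genes were also lower in RvD6si, by less. Acta2, smooth muscle actin (chr19:34241090-34255590), had 423 to 1530.5 normalized counts in RvD6 and 209.7 to 388 in RvD6si. Mgp, an inhibitor of calcification in the vessel wall (chr6:136872435-136875823), counted 808, 528, 350.2, 710.2 and 386 in RvD6 and 193, 288, 215, 239 and 198 in RvD6si. In both genes every RvD6si library lay below every RvD6 library, and RvD6 library 8 was the lowest of its group. Log2 differences were -1.45 for Acta2 (95% interval -2.05 to -0.85, adjusted p = 0.0392) and -1.29 for Mgp (95% interval -1.77 to -0.80, adjusted p = 0.0247). Mylk, the kinase that activates smooth muscle myosin, and its substrate Myl9 differed by -1.41 and -0.72 (adjusted p = 0.0435 and 0.0378). The highest library was RvD6 8 or 9 in only 1 of these 4 genes, against all 21 of striated muscle. Endothelial markers did not pass the threshold in any of 12 cases, with a median log2 difference of -0.39 and 1 lower gene at an unadjusted p below 0.05 (Ly6c1, -0.48). The 7 fibroblast markers tested were all negative (median -0.68), none passed, and 4 had an unadjusted p below 0.05, among them Fbln1 at -1.29 and Col1a2 at -0.68.

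Leukocyte and bone genes formed the remaining tissue group. Chil3, a chitinase-like protein of neutrophil precursors and macrophages (chr3:106147554-106167564), counted 1989, 2747, 1384, 911 and 3232 in RvD6 and 285, 54.3, 102, 138 and 499 in RvD6si. RvD6si library 15 was the highest of its group and still below every RvD6 library. The log2 difference was -3.27 (95% interval -4.47 to -2.06, adjusted p = 0.0247). Stap1, an adaptor of B cell receptor signalling (chr5:86071746-86106125), had no count in any RvD6si library and 10.2, 58.6, 16.8, 16.1 and 37.2 normalized counts in RvD6, which is at least 8.42-fold lower in RvD6si with a floor of 3 counts per library. Lsp1, an actin-binding protein of leukocytes, and Ctsk, the collagen-degrading protease of osteoclasts, differed by -2.21 and -1.21 on the log2 scale (adjusted p = 0.0392 and 0.0349). Ctsk counted 218, 259, 157, 146 and 212 in RvD6 and 77.9, 71.9, 89.5, 81.7 and 106 in RvD6si. The pseudogene Gm6522 on chromosome 3 differed by -2.83 (adjusted p = 0.0378). With the marrow level of each library as a covariate the median of the 5 genes moved from -2.83 to -1.43, Chil3, itself in a marrow list, moved to -1.43, and 0 of the 5 were called, 4 of them having an unadjusted p below 0.05. The marrow level overlapped between the lipids only through RvD6si library 15, so this fit separates it poorly from treatment. Limma-voom without the covariate called all 5, against 0.223% of all tested genes called lower.

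The wider marrow lists showed how much RvD6si library 15 weighed. In the full comparison none of 13 erythroid genes, 1 of 16 granulocyte precursor genes (Chil3), 1 of 10 B lineage genes (Stap1) and 1 of 9 bone genes (Ctsk) passed the threshold, with median log2 differences of -1.50, -1.69, -1.16 and -0.96. Hbb-bs, an adult beta-globin, counted 19258, 16752, 19329, 12298 and 22048 in RvD6 and 2045, 4956, 2949, 2562 and 22581 in RvD6si. Library 15 exceeded every RvD6 library for this gene, and the other RvD6si libraries lay below every RvD6 library. Its log2 difference was -1.34 in the full comparison (edgeR adjusted p = 0.416) and -2.51 without library 15 (adjusted p = 0.000438). S100a8, a calcium-binding protein of neutrophils, counted 1705, 2228, 941, 645 and 1864 in RvD6 and 99.4, 113, 40.2, 46.6 and 2454 in RvD6si. Its difference moved from -1.43 (adjusted p = 0.676) to -4.29 (adjusted p = 0.000448). Without library 15, 9 of the erythroid and 12 of the granulocyte precursor genes passed as lower in RvD6si. So did 5 cell cycle genes, the macrophage genes Tyrobp and Fcer1g, and 10 skeletal muscle markers, against 0.833% of all tested genes in that fit. Limma-voom with library 15 included also called 4 erythroid, 9 granulocyte precursor and 1 macrophage gene lower, against 0.223% of all tested genes.

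Library 15 also weighed on proliferation genes and the lipoxygenase pathway. None of 21 cell cycle genes passed in the full comparison, 20 of them were negative, the median was -1.36, and 5 had an unadjusted p below 0.05. Mki67, the proliferation antigen, counted 209, 561, 298, 159 and 641 in RvD6 and 50.8, 0.799, 27.4, 0 and 429 in RvD6si. Library 15 lay within the RvD6 range, and the difference moved from -1.92 to -4.26 without it (adjusted p from 0.603 to 0.0396). Of 19 tested genes for the enzymes and receptors of proresolving lipids and leukotrienes, none passed, 15 were negative and the median was -0.63. Alox5, the lipoxygenase that neutrophils use to make leukotrienes and resolvins, was the member with the smallest p. It counted 85.2, 92.8, 19.6, 37.2 and 128 in RvD6 and 13.6, 9.58, 9.13, 4.14 and 42.3 in RvD6si. RvD6si libraries 11 to 14 lay below every RvD6 library and library 15 did not, and the log2 difference was -2.24 (95% interval -3.62 to -0.86, edgeR adjusted p = 0.254). It passed with DESeq2 (adjusted p = 0.0478) and with edgeR without library 15 (adjusted p = 0.0397). Granulocyte precursor markers moved across the same libraries, and their part in the Alox5 difference was not tested. Fpr1, a formyl peptide receptor of neutrophils, had an unadjusted p of 0.0273 and a difference of -1.89.

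Of the macrophage markers, none of 12 passed, 6 were lower in RvD6si at an unadjusted p below 0.05, and the median log2 difference was -0.65. Tyrobp, a signalling adaptor of myeloid cells, counted 234, 196, 136, 115 and 263 in RvD6 and 19.2, 43.9, 47.5, 26.9 and 187 in RvD6si, and its difference was -1.56 (adjusted p = 0.314). Again library 15 lay among the RvD6 libraries. The complement genes C1qc and C1qb, made by tissue macrophages, differed by -0.68 and -0.63 with unadjusted p of 0.0184 and 0.0406. Interferon response genes showed a median of -0.20 with 1 of 12 at an unadjusted p below 0.05 (Rsad2, -1.08).

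Of the 39 genes, mt-Rnr2 and CT010467.1 kept their call in the most leave-one-out fits, and both belong to the 4 abundant noncoding RNAs. mt-Rnr2, the large ribosomal RNA of mitochondria (chrM:1094-2675), took 2.5 to 3.41% of all counts in RvD6si libraries and 4.67 to 6.57% in RvD6 libraries. Its normalized counts were 378591, 338148, 363569, 478132 and 416078 in RvD6 and 230914, 238362, 176712, 212296 and 207848 in RvD6si. The annotated ribosomal RNA gene CT010467.1 (chr17:39846353-39848827), named Rn18s-rs5 in RefSeq, took 4.98 to 6.24% in RvD6si and 7.66 to 9.97% in RvD6, with 749632, 554086, 578870.2, 619687 and 591706 in RvD6 and 349165, 385075, 356504, 389068 and 418613 in RvD6si. In both genes every RvD6si library was below every RvD6 library and also below every vehicle library. The log2 difference was -0.88 for mt-Rnr2 (95% interval -1.10 to -0.67, edgeR adjusted p = 0.00126) and -0.70 for CT010467.1 (95% interval -0.88 to -0.51, adjusted p = 0.00168), that is 1.84-fold and 1.62-fold lower. These 2 genes passed in all 15 fits that left out 1 library and in the fits without RvD6 libraries 8 and 9. With the muscle level as a covariate the differences were -0.73 and -0.72 and the calls were lost (adjusted p = 0.538 and 0.462), as they were with the marrow level, where 1 gene was called (0.00604%), at -0.96 and -0.65 (adjusted p = 0.0828 and 0.276). Both levels ran with the treatment, muscle without overlap and marrow except in RvD6si library 15. A call lost in these fits therefore cannot separate the level from the treatment. CT010467.1 shares exons with AY036118 and Gm42418, so reads in the shared positions are not counted and its level is uncertain. The libraries were primed with oligo-dT, which copies polyadenylated RNA. How far ribosomal RNA counts follow the ribosomal RNA of the tissue, or the quality of the RNA or library, was not tested.

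mt-Rnr1, the small mitochondrial ribosomal RNA, counted 43986, 49624, 54246, 60328 and 60971 in RvD6 and 21355, 42698, 19669, 19486 and 29339.9 in RvD6si. RvD6si library 12 lay just below the lowest RvD6 library, and the others were well below (log2 difference -1.02, adjusted p = 0.0392). The 15 mitochondrially encoded genes were all negative, with a median of -0.43, 2 called and 11 with an unadjusted p below 0.05. This direction held for every one of them with median-of-ratios (RLE) scaling, with DESeq2 and with the gene length trend removed. Those settings refit the same libraries. Without RvD6 libraries 8 and 9 and RvD6si library 15, mt-Co1 moved from -0.43 to -0.098 and mt-Cytb from -0.31 to -0.027 (edgeR adjusted p = 0.904 and 0.985). Among messenger RNAs of the mitochondrial genome, mt-Nd5 and mt-Co3, subunits of respiratory complexes I and IV, differed by -0.50 (95% interval -0.72 to -0.28, edgeR adjusted p = 0.0603) and -0.59 (95% interval -0.87 to -0.31, adjusted p = 0.0933) without overlap of the groups, and both passed with DESeq2 (adjusted p = 0.00174 and 0.00863). Without RvD6 libraries 8 and 9 and RvD6si library 15 they differed by -0.36 and -0.45 (edgeR adjusted p = 0.197 and 0.266). Of the nuclear genes of the respiratory chain none of 77 was called, with 2 at an unadjusted p below 0.05, a median of -0.13 and 75 intervals within 1 log2 unit of 0.

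Malat1, a long RNA kept in the nucleus (chr19:5795690-5802672), counted 6782, 10451, 12641, 11300.4 and 14094 in RvD6 and 4969, 6701, 5102, 5706 and 4233 in RvD6si. RvD6 library 6 came close to RvD6si library 12, and no values overlapped. The log2 difference was -1.04 (95% interval -1.43 to -0.65, adjusted p = 0.0247), and the RvD6si libraries were also below every vehicle library. The 9 nuclear long noncoding RNAs tested were all negative (median -0.64), with 1 called and 6 at an unadjusted p below 0.05. Snhg11, a host of small nucleolar RNAs, and Miat differed by -0.92 (95% interval -1.35 to -0.49, edgeR adjusted p = 0.0811) and -1.25 (95% interval -1.89 to -0.61, adjusted p = 0.126), and both passed with DESeq2 (adjusted p = 0.00344 and 0.0127). Without RvD6 libraries 8 and 9 and RvD6si library 15 they differed by -0.45 and -1.03 (edgeR adjusted p = 0.357 and 0.289). With the length trend removed the median of the list was -0.45. Malat1, Snhg11 and Miat each share exons with other annotated genes.

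Cdkn1b, Med21 and Ube2l6 completed the lower genes. Cdkn1b, the cyclin-dependent kinase inhibitor p27 (chr6:134920401-134925513), counted 500.2, 487, 496, 492 and 619 in RvD6 and 268, 284, 335, 302 and 320.2 in RvD6si. Med21, a subunit of the Mediator complex that links transcription factors to RNA polymerase II (chr6:146642547-146650732), counted 774, 644, 838, 730.1 and 806 in RvD6 and 415 to 556 in RvD6si. For both, the RvD6 libraries lay within or near the vehicle range and the RvD6si libraries lay below all of them. Log2 differences were -0.77 (95% interval -1.07 to -0.48, adjusted p = 0.0247) and -0.64 (95% interval -0.92 to -0.37, adjusted p = 0.049). Ube2l6, the conjugating enzyme for the interferon-induced modifier ISG15 (chr2:84798828-84810335), counted 706, 792, 679, 496 and 638 in RvD6 and 313, 352, 378, 430.4 and 418 in RvD6si and 329, 341, 397, 459 and 344 in vehicle. Here RvD6 stood above both other groups, by a log2 difference of -0.80 between the lipids (95% interval -1.13 to -0.47, adjusted p = 0.0387). Leaving out 1 library at a time kept the call in 8 of 15 fits for Cdkn1b, 6 for Ube2l6 and 2 for Med21.

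Nbas and Cc2d1b were higher in RvD6si. Nbas, which tethers vesicles returning from the Golgi to the endoplasmic reticulum (chr12:13269133-13583811), counted 199, 237, 258, 187 and 217 in RvD6 and 534, 347, 494, 417 and 426 in RvD6si. Cc2d1b, a partner of the ESCRT-III membrane remodelling machinery (chr4:108619940-108634123), counted 202, 196, 224, 209 and 164 in RvD6 and 333, 319, 376, 337 and 310.5 in RvD6si. Neither gene overlapped between the lipids, and RvD6si was above all vehicle libraries for both. The log2 difference was 1.02 for Nbas (95% interval 0.64 to 1.41, adjusted p = 0.0247) and 0.76 for Cc2d1b (95% interval 0.44 to 1.08, adjusted p = 0.0392), or 2.03-fold and 1.7-fold. The calls held in 9 of 15 leave-one-out fits for Nbas and in 3 for Cc2d1b, whose exons share positions with another gene on the opposite strand.

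**Figure D3:**
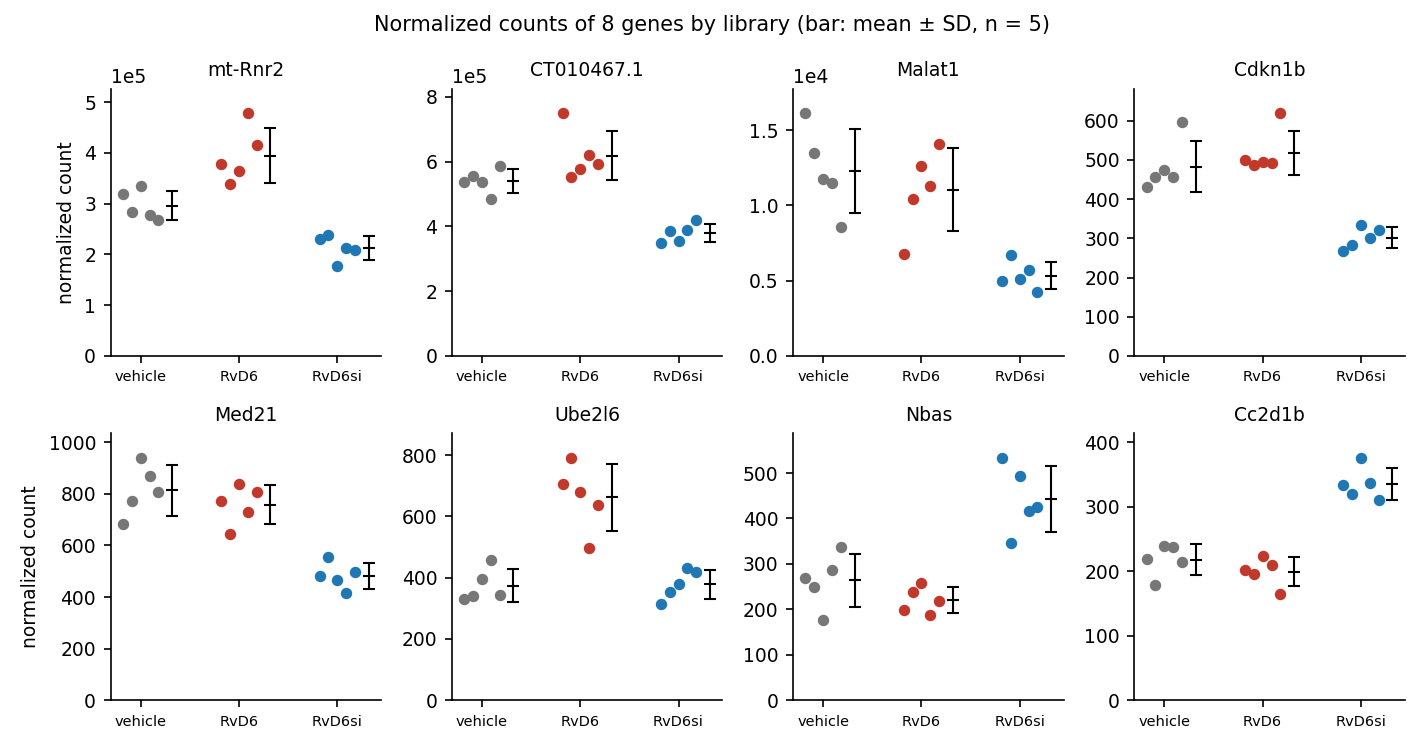
Normalized counts (vertical axes from 0) of 8 of the 39 genes in each library of vehicle, RvD6 and RvD6si, with mean ± SD (n = 5) beside the points. RvD6si lies below both other groups in mt-Rnr2, CT010467.1, Malat1, Cdkn1b and Med21 and above both in Nbas and Cc2d1b, while in Ube2l6 RvD6 lies above both.

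More genes were higher in RvD6si under other settings. DESeq2 called 185 genes (0.936%), 51 higher (0.258%) and 134 lower (0.678%), and 12 of the 51 were also among the 14 that edgeR called higher without RvD6si library 15. These 12, chosen after their values were seen, were Nbas, Cc2d1b, Arhgap28, Vwa5a, Cacna2d3, Eno2, Baiap2l1, Slc29a4, Pacsin1, Glyctk, Rab6a and Snx4. In 11 of them the lipids did not overlap, against 0.652% of all tested genes with RvD6si entirely above. The 12 were called from these same counts, so the lack of overlap is partly built in. Eno2, the neuronal enolase of glycolysis, counted 1718, 2381, 1673, 2303 and 1724 in RvD6 and 5109, 3239, 3547, 3392 and 2814 in RvD6si. Cacna2d3, an auxiliary subunit of voltage-gated calcium channels, counted 174, 249, 233, 149 and 146 in RvD6 and 405, 462, 292, 337 and 319 in RvD6si. RvD6si library 11 was highest for Eno2 and library 12 for Cacna2d3, and no RvD6si library fell into the RvD6 range. Their differences were 0.90 (95% interval 0.48 to 1.31, edgeR adjusted p = 0.0754) and 0.94 (95% interval 0.53 to 1.36, adjusted p = 0.0577) with all libraries. Pacsin1, which bends membranes in synaptic vesicle recycling, counted 952, 798, 849, 821 and 729 in RvD6 and 1554, 1074, 1434, 1297 and 1136 in RvD6si, a difference of 0.66 (adjusted p = 0.0577). Rab6a, a regulator of Golgi traffic, differed by 0.59 (adjusted p = 0.0998), and the monoamine transporter gene Slc29a4 by 1.48 (adjusted p = 0.0531). Vwa5a counted 874, 1126, 999, 1537 and 983 in RvD6 and 2420.2, 1562, 1689, 1714 and 1673 in RvD6si, and it was also among the 4 higher genes with limma-voom (0.0241%) and the 7 higher without RvD6 libraries 8 and 9 and RvD6si library 15. These 7 also held Nefm and Prx.

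Against the range of the vehicle libraries, the 39 genes differed in which lipid stood apart. All 5 RvD6 libraries lay above all vehicle libraries for 14 genes and below for 0, against 2.25% and 1.47% of all tested genes. All 5 RvD6si libraries lay outside the vehicle range for 7 genes, below it for Malat1, mt-Rnr2, CT010467.1, Cdkn1b and Med21 and above it for Nbas and Cc2d1b, against 2.4% of all tested genes below and 2.48% above. Only mt-Rnr2 met both conditions, with RvD6 above and RvD6si below vehicle. The 39 genes were called in these same libraries, most of them with RvD6 above RvD6si. A high RvD6 side is therefore partly built in, and the shares of all tested genes are not a matched background. For the striated muscle group the median log2 difference from vehicle was 4.03 for RvD6 and -0.86 for RvD6si, and for the noncoding RNAs it was 0.26 and -0.60. In tests against vehicle, 5 of the 39 passed for RvD6si (Malat1, mt-Rnr2, CT010467.1, Cdkn1b and Med21), where 111 genes passed in all (0.67%), 87 higher (0.525%) and 24 lower (0.145%), and 0 of the 39 passed for RvD6, where no gene passed in edgeR (0%) and 2256 had an unadjusted p below 0.05. Both comparisons use the same vehicle samples and are given side by side only.

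**Figure D4:**
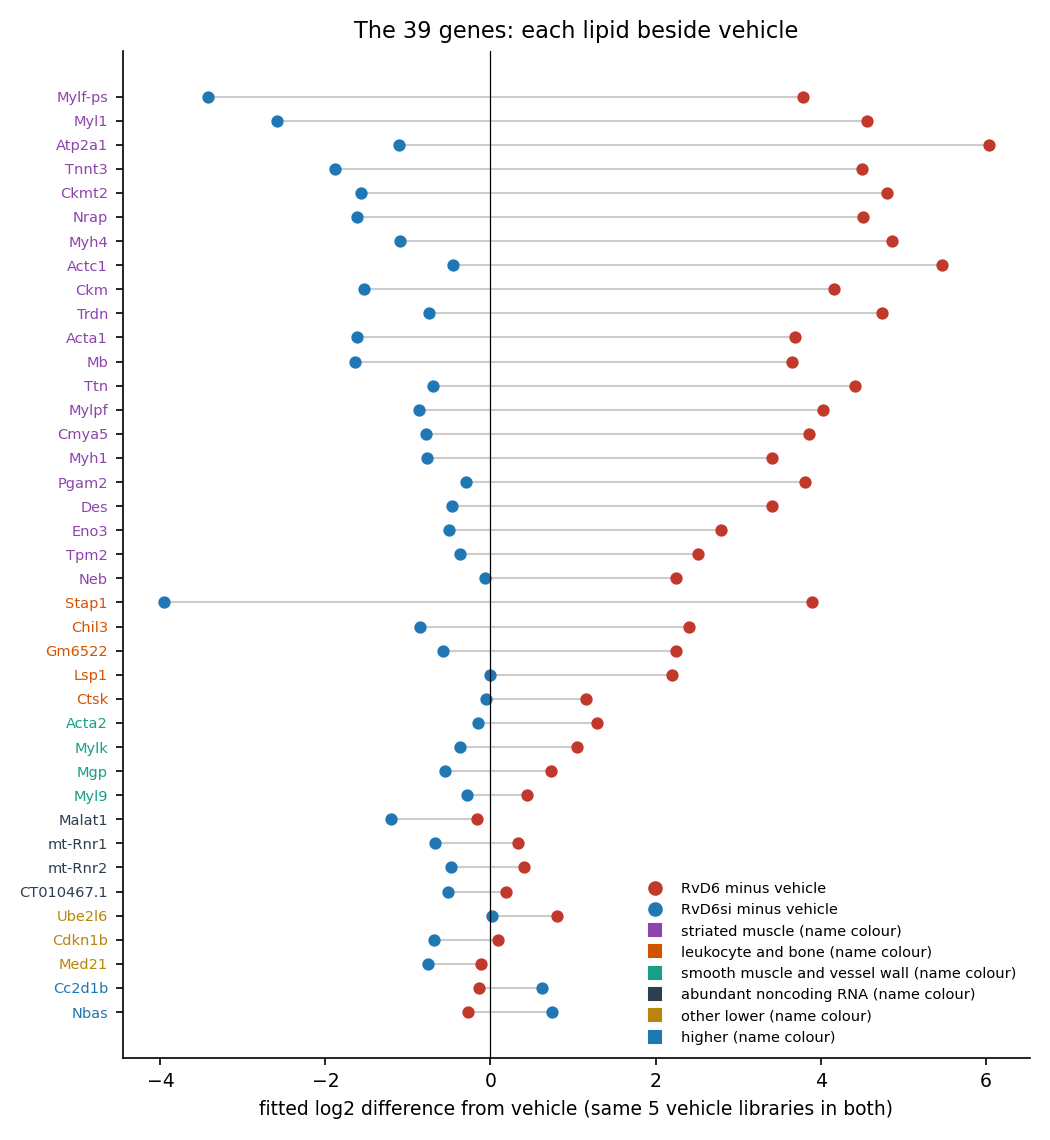
Fitted log2 difference from vehicle for each of the 39 genes (rows, name colour by group), with RvD6 in red and RvD6si in blue and a line joining them. Muscle and leukocyte genes have RvD6 to the right of 0, by less in smooth muscle and the vessel wall, and RvD6si at or left of 0. The RvD6si point is the farther from 0 for the noncoding RNAs, Cdkn1b, Med21, Cc2d1b and Nbas, and narrowly for the leukocyte gene Stap1.

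Genes of sensory neurons differed by small amounts. None of the 14 sensory neuron markers passed the threshold, 13 were positive (12 with RLE scaling or DESeq2), the median log2 difference was 0.31, and 12 intervals lay within 1 log2 unit of 0. Their summed level was 14335, 13368, 16613, 9498 and 10714 CPM in the RvD6 libraries and 16977, 15467, 19407, 17532 and 15767 CPM in the RvD6si libraries. Vehicle libraries lay between 15896 and 17788 CPM, and the median log2 difference from vehicle was -0.34 for RvD6 and -0.089 for RvD6si. Libraries 9 and 10 of RvD6 were the lowest, and RvD6 library 8 overlapped the RvD6si range. Nefl, the light neurofilament subunit, counted 22801, 21025, 23720.2, 14967 and 17134 in RvD6 and 29611, 25273, 30149, 27749 and 22238 in RvD6si. Its difference was 0.45 (95% interval 0.19 to 0.71, unadjusted p = 0.0021, edgeR adjusted p = 0.224), and RvD6si library 15 lay below RvD6 libraries 6 and 8. The medium subunit Nefm differed by 0.56 (adjusted p = 0.582) with all libraries and by 1.05 without RvD6 libraries 8 and 9 and RvD6si library 15 (adjusted p = 0.045).

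Receptors and channels of nociceptors were likewise uncalled in all 34 cases, with 27 positive, a median of 0.15 and 4 higher against 1 lower at an unadjusted p below 0.05. The higher ones included Mrgprd, a receptor of non-peptidergic nociceptors (0.58, 95% interval 0.20 to 0.96), Ret, the signalling receptor for GDNF family ligands (0.47, 95% interval 0.14 to 0.81), and Trpm8, with edgeR adjusted p of 0.289 for Mrgprd and 0.33 for Ret. The lower gene was the mechanosensitive channel Piezo1 (-1.90), counted in low numbers.

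The 7 genes that the study plotted one by one did not pass the threshold between the lipids. Trpm8, the cold-sensing channel of corneal afferents, counted 281, 185, 229.8, 99.2 and 197 in RvD6 and 213, 335, 304, 198 and 409.6 in RvD6si, and RvD6 library 9 was the lowest of all. C9orf72, which acts in autophagy and membrane traffic, counted 776, 1146, 918, 990.3 and 897 in RvD6 and 1397, 1027, 1236, 1212 and 1079 in RvD6si. The groups overlapped for both genes, and their differences were 0.56 (95% interval 0.035 to 1.09) and 0.34 (95% interval 0.013 to 0.67). For these 7 genes, exact permutation of the 5 and 5 mean normalized counts, two-sided, gave unadjusted p = 0.0317 for C9orf72, 0.0873 for Trpm8, 0.167 for the semaphorin co-receptor Nrp1, 0.214 for the neuropeptide gene Calcb, 0.341 for the substance P precursor Tac1, 0.452 for the growth cone protein Gpm6a and 0.841 for the mTOR complex 2 subunit Rictor. In edgeR the adjusted p over all genes was 0.538 for C9orf72 and 0.524 for Trpm8. The neuropeptide Tac1 had an interval of -0.36 to 0.19, and Calcb of -0.11 to 0.47. Rictor had an interval of -0.44 to 0.55, which covers differences of either sign. Of the 7 intervals, 6 lay within 1 log2 unit of 0 and that of Trpm8 reached 1.09.

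**Figure D5:**
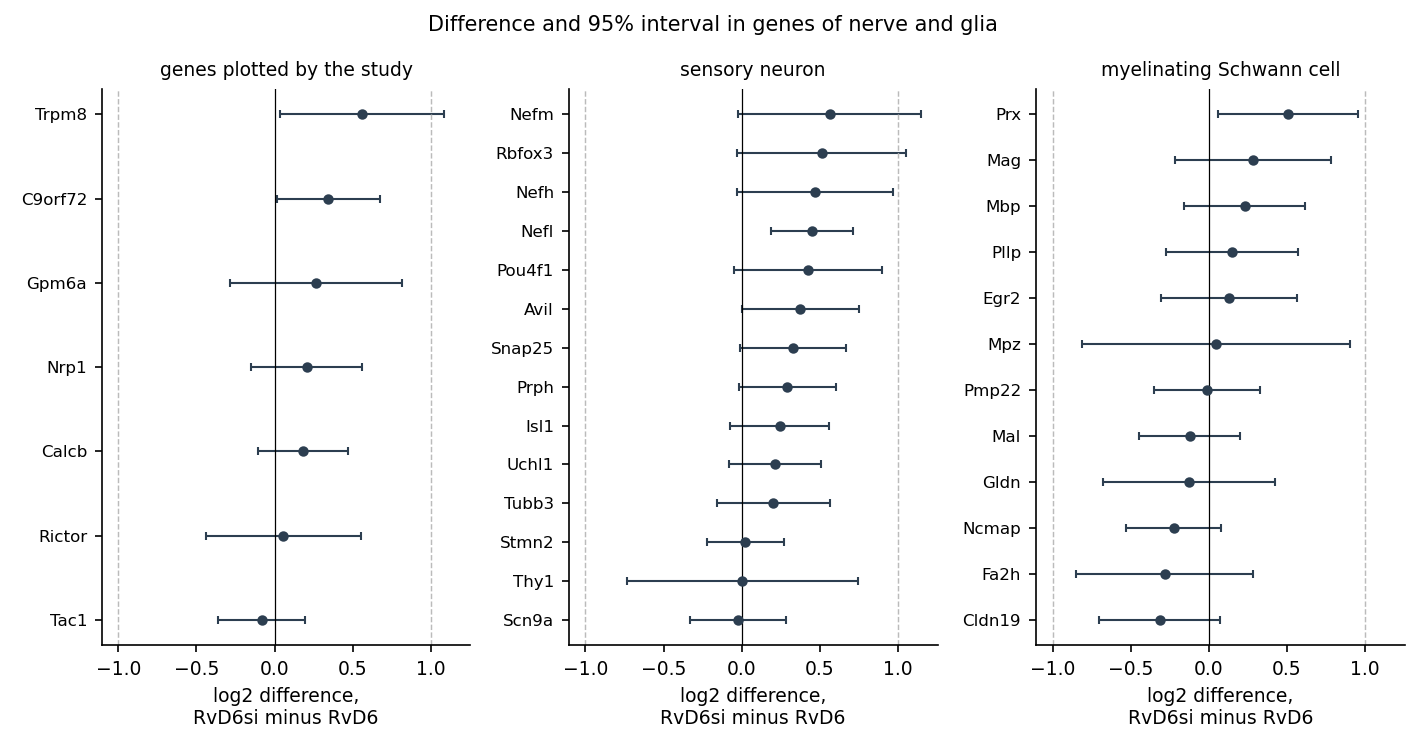
Log2 difference between RvD6si and RvD6 with its 95% interval (horizontal axis) for the 7 genes plotted by the study, 14 sensory neuron markers and 12 myelinating Schwann cell markers. Dashed lines mark 1 log2 unit either side of 0, and only the intervals of Trpm8, Nefm and Rbfox3 cross one of them.

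Glial genes were not called. Of 12 myelinating Schwann cell markers none passed, 6 were positive and 6 negative, the median was 0.018 (-0.04 with the 10 most counted genes removed) and all 12 intervals lay within 1 log2 unit of 0. Prx, the periaxin of the myelin sheath, was the member with the smallest p, at 0.51 (95% interval 0.059 to 0.95). Of 10 satellite glia markers none passed, the median was 0.0029 and 9 intervals lay within 1 log2 unit. Glul, glutamine synthetase, had the smallest p there (-0.45, 95% interval -0.94 to 0.032).

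Pathways of axon growth and of growth signalling showed no called member. Of 34 axon guidance genes, 1 was higher at an unadjusted p below 0.05 (median 0.09). It was Epha5, an ephrin receptor, which counted 35.2, 48.7, 47.6, 73.1 and 32.2 in RvD6 and 84.7, 137, 85.8, 124 and 86.2 in RvD6si. No values overlapped, the difference was 1.14 (95% interval 0.52 to 1.76, edgeR adjusted p = 0.172), and DESeq2 called it (adjusted p = 0.0216). Of 18 nerve injury and regeneration genes, Klf7, a factor that promotes axon growth, was higher at an unadjusted p of 0.0296 (0.47), and the list median was 0.24. Of 27 genes of the mTOR and AKT pathway, Rptor, the scaffold of mTOR complex 1, was higher at 0.39 (unadjusted p = 0.0429), the median was -0.0087 and 22 intervals lay within 1 log2 unit. Immediate early genes had the highest median of these lists, 0.49 over 13 genes, with none called. Egr1 and Junb, which neurons and other cells switch on within minutes of a stimulus, differed by 1.12 (95% interval 0.39 to 1.86, adjusted p = 0.293) and 1.00 (95% interval 0.31 to 1.69, adjusted p = 0.32). Junb counted 34.4, 24.3, 51.8, 52.1 and 48.3 in RvD6 and 68.9, 75.9, 69.4, 61 and 145 in RvD6si. All RvD6si values were above all RvD6 values for Junb, with library 15 by far the highest.

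Housekeeping families held no called gene. Among 78 cytosolic ribosomal protein genes none passed, 73 were negative, the median was -0.26 and 12 were lower at an unadjusted p below 0.05. The widest difference of that list, -5.45 for Rpl3l, belongs to a muscle-specific paralog and had its highest counts in RvD6 libraries 8 and 9 (167 and 205). Proteasome genes had a median of 0.0013 with 44 of 47 intervals within 1 log2 unit, splicing factors 0.015 with 27 of 30, and heat shock proteins and chaperones 0.18 with 13 of 15. Of 31 collagen genes none passed (median -0.15), and of 17 circadian clock genes none passed. The clock genes Hlf and Nr1d1 were lower at unadjusted p of 0.0106 and 0.0141 (-1.38 and -0.72). The 13 glucocorticoid response genes had a median of -0.11, and none passed. The 5 pituitary genes tested had a median of -0.996, the 4 oligodendrocyte genes 0.63, and none of either passed. Of the lists with no member called by edgeR, DESeq2 called 1 member each of the fibroblast, pituitary, axon guidance, proresolving lipid and nuclear respiratory chain lists and none of the others. Of all its tested genes DESeq2 called 0.936%.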

How the data were processed

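Libraries were made by the authors from TG RNA by Smart-seq2, which copies polyadenylated RNA with an oligo-dT primer and amplifies it, and were tagged with Nextera XT and sequenced on a NextSeq. The deposited table holds raw read counts per gene, which the authors made with featureCounts (header 1.5.0-p1, Subread 1.6.5 per the labels) over exons of GRCm38, with no strand setting and no replicate pooling. Reads that overlap several genes are not counted under these settings, and 55480 of 55573 gene IDs (99.8%) were named from GENCODE release M21 here. The authors analysed the counts with DESeq2 in R 3.6.1.

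Groups came from the treatment labels, which give no batch, and replicate numbers do not recur between groups. All 15 samples were fitted with edgeR 4.0.16 in R 4.3.3 (TMM scaling, filterByExpr with a minimum count of 10 and a minimum total of 15, quasi-likelihood F test), and RvD6si minus RvD6 was tested over 16567 genes with Benjamini-Hochberg adjustment at 0.05. Intervals (95%) come from the quasi-likelihood error. Normalized counts are counts divided by DESeq2 1.42.0 size factors. Single genes plotted by the study and depth were compared by two-sided exact permutation tests in SciPy 1.17.1. A fold against a group at 0 uses a floor of 3 counts per library. Total counts were 4125962 to 9903396 per library, and no pair of libraries was a copy of another. Alternatives were DESeq2, limma-voom (limma 3.58.1), other scalings, filters and samples, the removal of the trend with gene length (lowess span 0.3), and the marrow or muscle level as a covariate.

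Named genes were the called genes whose groups did not overlap, with a mean of at least 20 normalized counts (up to 12 each way by size of change), called list members, the genes plotted by the study, and up to 4 list members with the smallest p. Other genes were named with their values in view, and 1 list member is not reported here. Members, lists and rules were chosen with earlier results of these data known. On simulated counts for 16567 genes, edgeR recovered 45% of genes changed by 1 log2 unit and 92% of those changed by 2. Changes were planted only in the better-counted genes, so recovery among genes with few counts was not measured. Each gene was drawn independently with the spread that edgeR estimated, in a single run without shared shifts of muscle or marrow genes.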

Additional observations from a re-analysis of the deposited data

Results flagged for a closer look

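Among 118 groups of 5 values tested for a library far from the others (named genes and marker lists in each lipid group), 11 held one, where chance flags about 1 in 20 groups and so 6 of these. RvD6si library 15 gave 5 of the 11. It had the highest level in its group of the erythroid list (12959 CPM, the next library 2723), the granulocyte precursor list (2608 CPM, next 201), the B lineage list (304 CPM, next 159) and the bone list (171 CPM, next 66.3), and the lowest of the fibroblast list (1269 CPM, next 1549). RvD6 library 10 was the highest of its group for the B lineage list (298 CPM, next 185), for the pituitary list (2304 CPM, next 787) and for Cdkn1b (619 normalized counts, next 500.2). Nrap was highest in RvD6 library 9 (159 normalized counts, next 40.6). In RvD6si, Actc1 was highest in library 12 (20.8, next 2.74) and Trdn in library 13 (12.8, next 1.13).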

How the results depend on the processing

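The counts of called genes depended on the tool and the libraries, while the direction of the 39 genes rarely did. The 39 had been called from these same libraries, so keeping their direction is not a separate check. Against 39 genes (2 higher and 37 lower in RvD6si), edgeR on the 10 lipid samples alone called 17 (1 and 16), DESeq2 on all samples 185 (51 and 134) and on the 10 samples 182 (39 and 143). Limma-voom called 41 (4 and 37), of which 15 were among the 39 and none of the 21 striated muscle genes, no filter 59 (5 and 54), a minimum of 10 counts in every sample 23 (1 and 22), and removal of the length trend 34 (1 and 33). The marrow covariate left 1 (0 and 1). Leaving out 1 library gave 2 to 156 calls, 0 to 14 higher and 2 to 142 lower, and 0 to 1 of the exact tests of the genes plotted by the study had p below 0.05, against 1. Of the fits added after the data were seen, the one without RvD6 libraries 8 and 9 called 2 (0 and 2), the one also without RvD6si library 15 called 94 (87 lower, 7 higher) and the muscle covariate 2 (0 and 2). Of 1264 comparisons for single genes, 807 kept direction and side of the threshold, 446 kept direction only and 11 reversed. They cover the 39 genes and the 7 plotted by the study. For the 7, keeping the side means staying uncalled. With the muscle covariate the reversed values were 0.63 for Mylpf, 0.37 for Pgam2, 0.99 for Eno3, 0.033 for Tpm2, 0.20 for Neb and -0.25 for Rictor, and with the marrow covariate -0.028 for Gpm6a. Mylpf and Eno3 are themselves in the muscle list, so their own counts enter the muscle covariate. Rictor ranged from -0.12 (without RvD6si replicate 12) to 0.16 (without RvD6si replicate 13) over the leave-one-out fits, being also negative without RvD6 replicate 8, and was -0.070 without RvD6 libraries 8 and 9 and -0.052 also without RvD6si library 15. Both covariates ran with the treatment, and the cause of these changes was not tested. No paired analysis was possible because the replicate numbers of the labels do not recur between groups. DESeq2 had 31 false calls among 178 on simulated counts, against 3 among 140 for edgeR. Those counts were drawn with the spread that edgeR estimated and without shared shifts of muscle or marrow genes, unlike these libraries. Precision was limited, as 55.3% of the tested genes had intervals within 1 log2 unit of 0 and the others reached further.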

Other observations

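Outside the 39 genes, 2 secreted epithelial proteins had large log2 differences that rested on RvD6 library 7. Reg3g, an antimicrobial lectin, had 1843 normalized counts there and at most 36.7 in any other library (log2 difference -8.98, edgeR adjusted p = 0.0811). Bpifa1, an airway surface protein, had 5037 there and at most 110.3 in any other library (-6.02, adjusted p = 0.0998).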
